A study of Mus musculus with 12 samples.

Results

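The tyrosine kinase Syk and 8 genes that act close to it were followed in bone marrow derived macrophages (BMDMs) given medium conditioned by neuroblastoma cells, the Syk inhibitor R788, or both. The 9 genes were Syk, the Src-family kinases Lyn and Fgr, the Tec-family kinase Btk, the ITAM adaptor Tyrobp, the adaptors Blnk and Card9, the exchange factor Vav1 and the phospholipase Plcg2. They were taken by name from a table of read counts for 54232 genes, and all 9 were found once each and had enough counts to be tested. Each group had 2 libraries of BMDMs from C57BL/6 WT mice, treated for 24 h after 5 days of culture. The 6 groups were no tumor-conditioned medium (TCM) and no R788 (NS), R788 alone at 500 nM, NB9464 TCM, NB9464 TCM with 500 nM R788, NBT3L TCM, and NBT3L TCM with 500 nM R788. NB9464 is a murine neuroblastoma line with amplified MYCN and NBT3L a line without it. The study asked whether Syk takes part in the response of macrophages to neuroblastoma and what its inhibition does.

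Syk is recruited when a receptor that carries an immunoreceptor tyrosine-based activation motif (ITAM), or that pairs with an ITAM adaptor such as Tyrobp (DAP12), is engaged. Src-family kinases phosphorylate the motif, Syk binds it through its SH2 domains, and active Syk then phosphorylates adaptors and enzymes. From there the signal runs to calcium and diacylglycerol through phospholipase C, to Rac through Vav proteins, and to NF-kB through Card9 with Bcl10 and Malt1. In macrophages this machinery serves Fc receptors, C-type lectins and receptors of the TREM family. R788 (fostamatinib) is a prodrug whose metabolite blocks the kinase activity of Syk. The libraries measure transcripts, so they give no reading of that activity.

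What the groups share, and what is not known of them, limits the comparisons. By the paper's methods, NB9464 TCM was collected in DMEM without serum, while BMDMs were grown in RPMI with serum and M-CSF. How NBT3L TCM was prepared, which medium the NS cells had and what R788 was dissolved in are not given in the sources used here. TCM therefore cannot be told apart from any difference in base medium or serum, nor R788 from any difference in its solvent. The labels do not say whether the 2 libraries of a group came from separate mice, so the p-values measure the spread between these libraries, which may be technical. In bulk RNA, fewer cells of a type and less RNA per cell cannot be told apart.

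Total counts lay between 44977847 and 56449685. The R788 pair stood apart: library SJ8 had 16149 genes with a count against 17275 to 18343 in the other 11, and its replicates differed more, with an SD over 10715 genes of the log2 difference of 0.371 against 0.230 to 0.261 in the other pairs. The summed level of 8 macrophage markers was 72383 to 86874 TPM (counts scaled by gene length and depth) and was mostly Lyz2 (63439 to 77172 TPM), while Adgre1 (F4/80) lay at 1394 to 5904, Fcgr1 at 75.8 to 345 and Mertk at 17.3 to 71.0. Pax5, which defines B cells, was at 0 in every library, and the summed level of 6 B cell markers, 4.43 to 18.2 TPM, came almost entirely from Cd79b (3.11 to 18.1 TPM). The 6 T cell markers summed to 0.420 to 3.94 TPM, 6 mast cell and basophil markers to 0 to 0.760, 5 dendritic cell markers to 0.301 to 0.964, and 7 neuroblastoma markers to 0 to 1.35, with Th and Chga at 0 throughout. The 6 neutrophil markers differed between media: they summed to 138 and 142 TPM in NS and 152 and 162 in R788, but 43.7 to 64.5 in the 8 libraries with TCM. Most of the sum came from Ngp (20.0 to 101 TPM), Ltf (5.10 to 42.2) and Camp (12.2 to 23.4), each detected in every library. Elane and Mpo reached at most 4.57 and 1.60 TPM, and Ly6g, which defines neutrophils, had at most 4 reads in any library. The part of neutrophil transcripts in the results was not tested.

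Promoter windows of 300 bases, from 250 before to 50 after a RefSeq start site on GRCm38.p6, were given for 7 of the 9 genes, with 2 windows for Syk. Lyn and Tyrobp were not matched. Shown here are the stretches before the start that no annotated exon covers, for the 3 matched genes that rose with both TCMs, so that their sequence can be read beside their counts. Capitals mark GAGGAA, the core bound by PU.1, an ETS factor of macrophages, on either strand. The Syk stretch lies at chr13:52596632-52596852 (+ strand, intronic, ahead of the downstream start), Fgr at chr4:132973845-132974094 (+) and Vav1 at chr17:57278850-57279099 (+).
Syk: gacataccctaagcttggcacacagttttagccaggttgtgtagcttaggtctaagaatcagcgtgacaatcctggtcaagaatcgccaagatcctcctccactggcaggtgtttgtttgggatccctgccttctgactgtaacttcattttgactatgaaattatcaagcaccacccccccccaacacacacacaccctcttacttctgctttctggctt
Fgr: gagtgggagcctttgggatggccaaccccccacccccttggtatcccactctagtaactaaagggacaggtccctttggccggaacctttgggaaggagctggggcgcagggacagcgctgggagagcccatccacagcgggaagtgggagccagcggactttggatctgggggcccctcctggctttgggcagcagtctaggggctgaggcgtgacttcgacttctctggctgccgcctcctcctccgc
Vav1: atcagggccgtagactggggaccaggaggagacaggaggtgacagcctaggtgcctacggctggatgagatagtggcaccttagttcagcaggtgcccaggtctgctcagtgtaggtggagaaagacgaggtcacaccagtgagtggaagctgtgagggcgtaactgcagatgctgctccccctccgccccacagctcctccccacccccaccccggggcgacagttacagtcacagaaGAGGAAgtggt

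The Vav1 match begins 11 bases before the start. The Syk window held a match 9 bases before its downstream start, past the end of the stretch printed, while the window of its upstream start (chr13:52583187-52583486), 72.0% G and C, held none. Fgr and Btk had a match 32 and 10 bases after their starts. In all, 4 of 8 windows held GAGGAA, against 28.3% of 32851 windows of the same length. TGANTCA, the AP-1 element, was in 0 of the 8 windows (7.81% of all), and CACGTG, an E-box, in 1, that of Plcg2 (7.15%). None of the 3 motifs was in the windows of Card9 (chr2:26360860-26361159, - strand) or Blnk (chr19:40994172-40994471, -). These are matches of letters, not measured sites.

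Levels per length set the genes apart within a library. Tyrobp had the highest level per length of the 9 in every group, at 1995 to 2736 TPM (group means), and Blnk the lowest, at 18.3 to 43.6 TPM. The lengths are those of all annotated exons merged (667 bases for Tyrobp, 9362 for Syk, 5991 for Blnk), not of the transcripts expressed. The ranks rest on them. In normalized counts, Blnk was above Fgr in NS (2813 against 2653) and with NBT3L TCM (4653 against 4324), and below it in the other groups. In NS, Syk stood at 102 ± 6.49 TPM (SD, n = 2) (rank 6 of 9), and its libraries overlapped those of Btk (106 ± 10.4) and Card9 (100 ± 2.66). Above it lay Lyn (188 ± 9.28), Vav1 (200 ± 1.18) and Plcg2 (202 ± 15.4), the last pair overlapping, and below it Fgr (43.7 ± 0.558). With TCM, Vav1 ranked 2 (303 ± 7.82 TPM with NB9464 TCM, 285 ± 7.58 with NBT3L TCM), Lyn 3 (249 ± 2.85 and 208 ± 8.39) and Syk 4 (194 ± 9.47 and 194 ± 1.61), ahead of Plcg2 (154 ± 7.09 and 145 ± 2.67). With TCM and R788, Syk ranked 3, at 230 ± 18.1 TPM with NB9464 TCM, where it overlapped Lyn (227 ± 12.6), and at 228 ± 2.09 with NBT3L TCM, where it did not (Lyn 190 ± 6.65).

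**Figure D1:**
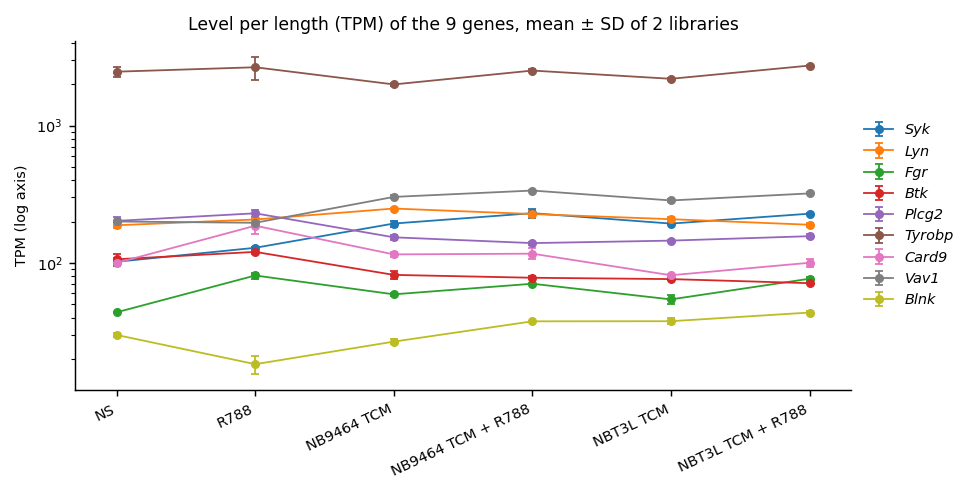
Level per length of the 9 genes (TPM, log axis) in the 6 groups. Points are means and bars the SD of 2 libraries. Tyrobp lies far above the rest in every group, and Syk moves from 102 TPM in NS to 228 to 230 TPM with TCM and R788. TPM is offset between groups. In counts scaled by DESeq2 size factors, the Syk means were 14987 in NS, 42437 with NB9464 TCM and R788, and 44023 with NBT3L TCM and R788.

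Differences between groups were tested on counts scaled by DESeq2 size factors, called normalized counts here. Calls are those of the Wald test at an adjusted p under 0.05 (Benjamini-Hochberg over the genes tested in that comparison, 16281 in all). With 2 libraries per group, a lack of overlap between groups arises readily by chance. Overlap is therefore given as description and not as a test. With NB9464 TCM against NS, 5 of the 9 genes were called higher and 1 lower, where 17.2% and 16.9% of all tested genes were. With NBT3L TCM against NS, 5 were higher and 0 lower, where 18% and 17.3% of all genes were. The median log2 fold change of the 9 was 0.46 with NB9464 TCM and 0.54 with NBT3L TCM, beside 0.02 and 0 over all tested genes. Syk, Vav1, Fgr and Lyn were called higher in both, Card9 with NB9464 TCM and Blnk with NBT3L TCM. The comparisons share the NS libraries, and those of R788 share the libraries of each medium. The 9 were chosen with earlier results of these data known, so the counts and medians above are no test of the group. The lowest normalized count of the 9 was 1439 (Blnk in SJ8), while a tested gene needed only 10 counts in 2 libraries. Genes with more counts are called more readily, so the shares of all genes are not a matched background. The same holds for the comparisons that follow.

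**Figure D2:**
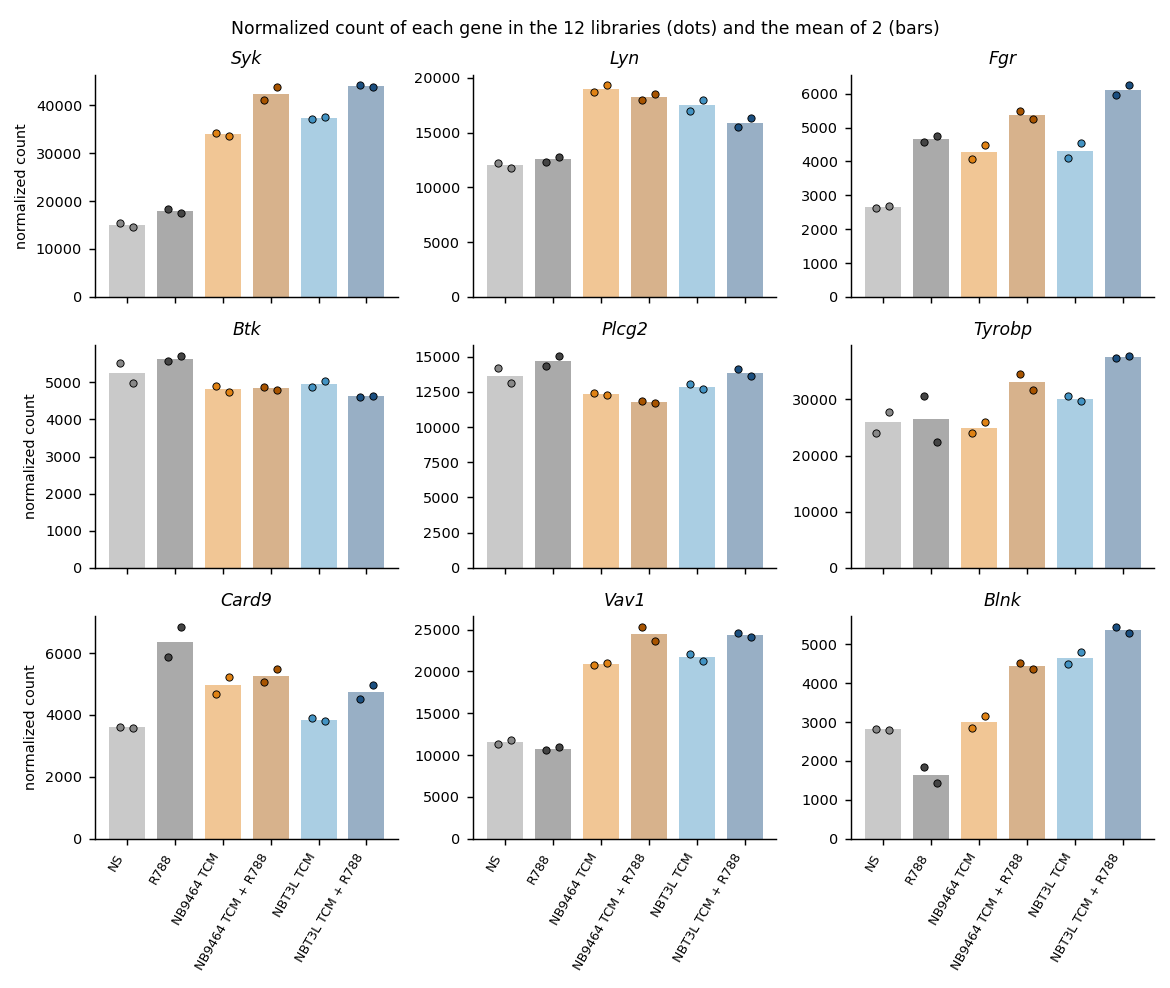
Normalized count of each gene in the 12 libraries (dots) and the group means (bars, n = 2), on axes from 0. Syk, Vav1, Lyn and Fgr are higher in every TCM library than in the NS libraries, and the R788 pair of Tyrobp is split between 30520 and 22392.

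Syk itself had 15428 and 14546 normalized counts in NS, 34238 and 33632 with NB9464 TCM, and 37102 and 37581 with NBT3L TCM. All 4 TCM libraries lay far above both NS libraries. The fold change was 2.26 with NB9464 TCM (log2 1.18, SE 0.051, adjusted p = 5.26e-116) and 2.49 with NBT3L TCM (log2 1.32, SE 0.051, adjusted p = 1.64e-144). In the quasi-likelihood test of edgeR the adjusted p was 1.84e-11 and 4.57e-12. Between the TCMs, Syk was 0.14 lower on the log2 scale with NB9464 TCM (SE 0.051, 95% interval -0.24 to -0.04), with an adjusted p of 0.0502. That comparison was called without R788 library SJ7 (adjusted p = 0.0105) or SJ8 (adjusted p = 0.0111), or when only the libraries compared were fitted (adjusted p = 0.0484). Scaled by library totals, an alternative chosen after seeing the data, the difference was -0.03 (adjusted p = 0.763). That scaling shifted the median of all tested genes from -0.001 to 0.10. A change of scaling shifts all genes alike, so the distance of Syk from the median cannot tell which scaling is right. That was not tested.

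The transcript of Syk, the target of R788, was higher with R788 in each medium. Syk had 18344 and 17601 normalized counts with R788 alone, 41094 and 43780 with NB9464 TCM and R788, and 44194 and 43852 with NBT3L TCM and R788. Each of these libraries was above every library of the same medium without R788. The log2 fold change was 0.26 without TCM (SE 0.051, adjusted p = 3.42e-06), 0.32 with NB9464 TCM (SE 0.051, adjusted p = 7.32e-09) and 0.24 with NBT3L TCM (SE 0.051, adjusted p = 5.64e-05). Averaged over the 3 media it was 0.27 (SE 0.029, adjusted p = 3.13e-19), a fold of 1.21. In edgeR the adjusted p was 0.001, 0.000363 and 0.00373 in the 3 media, in the same order, and 1.72e-06 averaged. The effect in NB9464 TCM differed from that without TCM by 0.06 (95% interval -0.08 to 0.20) and the effect in NBT3L TCM by -0.02 (-0.17 to 0.12), neither of which was called.

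Vav1, an exchange factor for Rac that Syk phosphorylates, was next in size with TCM. It had 11376 and 11834 normalized counts in NS, 20745 and 21054 with NB9464 TCM, and 22076 and 21286 with NBT3L TCM, with no overlap between NS and either TCM. The log2 fold change was 0.85 (SE 0.054, adjusted p = 1.04e-54) and 0.90 (SE 0.054, adjusted p = 1.54e-61). Its change with R788 differed by medium. Without TCM the libraries had 10557 and 10962, below NS, with a log2 change of -0.11 (SE 0.054, adjusted p = 0.121). With NB9464 TCM and R788 they had 25323 and 23609, 0.23 higher on the log2 scale than without R788 (SE 0.053, adjusted p = 0.000287), and with NBT3L TCM and R788 24583 and 24128, 0.17 higher (SE 0.053, adjusted p = 0.0147). The call in NB9464 TCM was lost without library SJ9 (log2 0.18, adjusted p = 0.0668). That in NBT3L TCM was lost in edgeR (adjusted p = 0.0512) and without SJ5, SJ6, SJ11 or SJ12 in turn (adjusted p up to 0.253, log2 0.14 to 0.19).

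Lyn, the Src-family kinase that phosphorylates ITAMs and also inhibitory receptors, rose with TCM but was not called with R788. It had 12259 and 11795 normalized counts in NS, 18661 and 19329 with NB9464 TCM, and 16982 and 17997 with NBT3L TCM. The groups did not overlap, and the log2 fold change was 0.66 (SE 0.056, adjusted p = 5.26e-31) and 0.54 (SE 0.056, adjusted p = 5.71e-21). R788 changed it by 0.06, -0.06 and -0.14 on the log2 scale without TCM, with NB9464 TCM and with NBT3L TCM (adjusted p = 0.458, 0.524 and 0.0789). The last was called lower without library SJ7 (adjusted p = 0.0297) or SJ8 (adjusted p = 0.0273). With R788 in both media, Lyn was 0.19 higher with NB9464 TCM than with NBT3L TCM (SE 0.056, adjusted p = 0.00755), a call lost without SJ9, SJ10 or SJ11 (log2 0.15 to 0.23 over all libraries left out, adjusted p up to 0.247). Lyn shares 248 of its 4073 exon bases with Gm26857 on the opposite strand, which had 10 to 71 reads per library.

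Fgr, a Src-family kinase of myeloid cells, rose with each TCM and with R788 in each medium. It had 2635 and 2670 normalized counts in NS, 4077 and 4482 with NB9464 TCM, and 4112 and 4536 with NBT3L TCM. R788 gave 4563 and 4753 without TCM, 5477 and 5267 with NB9464 TCM, and 5957 and 6255 with NBT3L TCM. Every treated library was above both NS libraries, and within each medium the libraries with and without R788 did not overlap. The TCM log2 fold changes were 0.69 (SE 0.080, adjusted p = 8.54e-17) and 0.71 (SE 0.080, adjusted p = 2.14e-17). Those of R788 were 0.81 without TCM (SE 0.080, adjusted p = 1.17e-22), 0.33 with NB9464 TCM (SE 0.079, adjusted p = 0.000445) and 0.50 with NBT3L TCM (SE 0.079, adjusted p = 1.21e-08). The call in NB9464 TCM was lost without library SJ3 (log2 0.26, adjusted p = 0.0542).

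Tyrobp, the adaptor that carries the ITAM for TREM receptors, was not called with either TCM. It had 24007 and 27752 normalized counts in NS, 23924 and 25933 with NB9464 TCM, and 30573 and 29689 with NBT3L TCM. The log2 change was -0.05 (SE 0.150, adjusted p = 0.842) and 0.22 (SE 0.150, adjusted p = 0.275). The R788 pair without TCM was split, with 30520 in SJ7 and 22392 in SJ8, on either side of both NS libraries. The direction of that comparison rested on which library was kept: log2 -0.21 without SJ7 (adjusted p = 0.0178) and 0.24 without SJ8 (adjusted p = 0.00617), beside 0.03 with both (adjusted p = 0.919).

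With TCM, R788 gave Tyrobp 34430 and 31719 normalized counts (NB9464) and 37401 and 37716 (NBT3L), above all libraries of the same TCM alone. The log2 fold change was 0.41 with NB9464 TCM (SE 0.150, adjusted p = 0.0374) and 0.32 with NBT3L TCM (SE 0.150, adjusted p = 0.147). The wide SE is shared by all groups in the fit and includes the split R788 pair. Leaving out SJ7 or SJ8, neither in these comparisons, gave calls for NBT3L TCM with R788 (adjusted p = 1.84e-06 at the lowest) and for NBT3L TCM against NS (adjusted p = 0.000942 without SJ7 and 0.00129 without SJ8). The call for NB9464 TCM with R788 was lost when any of 8 libraries was left out, SJ3 to SJ6 and SJ9 to SJ12 (adjusted p up to 0.307, log2 0.35 to 0.47).

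Blnk (SLP-65), an adaptor phosphorylated by Syk that is best known in B cells, moved with NBT3L TCM and with R788. It had 2831 and 2795 normalized counts in NS, 2851 and 3159 with NB9464 TCM, and 4495 and 4810 with NBT3L TCM. NBT3L TCM stood apart from NS (log2 0.73, SE 0.103, adjusted p = 1.86e-11), while NB9464 TCM did not by the test (log2 0.10, SE 0.103, adjusted p = 0.549). Between the TCMs, Blnk was 0.63 lower on the log2 scale with NB9464 TCM (SE 0.103, adjusted p = 4.34e-08). R788 alone gave 1835 and 1439, below both NS libraries (log2 -0.78, SE 0.104, adjusted p = 1.67e-12), or -0.62 without SJ8 and -0.97 without SJ7, both called. With NB9464 TCM and R788 the counts were 4508 and 4366, higher than without R788 (log2 0.56, SE 0.103, adjusted p = 1.19e-06), and with NBT3L TCM and R788 5447 and 5295 (log2 0.21, SE 0.102, adjusted p = 0.176). The last was called without SJ7 (adjusted p = 0.0346) or SJ8 (adjusted p = 0.0344). Pax5 was at 0 in every library, while Cd79b, which carried most of the B cell marker sum, also rose with R788 in both TCMs, and the part of B cell transcripts in the Blnk values was not tested.

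Card9, the adaptor that joins Syk to NF-kB, rose most with R788 alone. It had 3616 and 3593 normalized counts in NS and 5882 and 6843 with R788 (log2 0.82, SE 0.091, adjusted p = 7.84e-18), and no library of another group reached 5882. With NB9464 TCM it had 4690 and 5235 (log2 0.46 against NS, SE 0.091, adjusted p = 2.85e-06), and with NBT3L TCM 3905 and 3788 (log2 0.09, SE 0.092, adjusted p = 0.489). The TCMs differed by 0.37, NB9464 higher (SE 0.092, adjusted p = 0.00101), a call lost without SJ4 (log2 0.28, adjusted p = 0.091) or SJ6 (log2 0.35, adjusted p = 0.053). R788 with NB9464 TCM gave 5054 and 5487, overlapping NB9464 TCM alone (log2 0.09, SE 0.091, adjusted p = 0.6). R788 with NBT3L TCM gave 4518 and 4955 (log2 0.30, SE 0.092, adjusted p = 0.0101), a call lost without SJ5, SJ6 or SJ12 (log2 0.23 to 0.36 over all libraries left out, adjusted p up to 0.229). Card9 shares 87 of its 2293 exon bases with Gm13562 on the opposite strand, which had 0 to 55 reads per library.

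Btk, the Tec-family kinase that activates phospholipase C, was called in 0 of the 11 comparisons in DESeq2 or edgeR, and 1 of them, the R788 interaction for NBT3L TCM (log2 -0.20, SE 0.101), had an unadjusted p under 0.05 in DESeq2, as did 20.1% of all tested genes in that comparison. Its normalized counts were 5534 and 4973 in NS, 5570 and 5709 with R788, 4903 and 4746 with NB9464 TCM, 4873 and 4806 with NB9464 TCM and R788, 4875 and 5031 with NBT3L TCM, and 4607 and 4631 with NBT3L TCM and R788. The log2 change was -0.12 with NB9464 TCM (95% interval -0.26 to 0.02) and -0.08 with NBT3L TCM (-0.23 to 0.06). Scaled by library totals, Btk was called lower with both TCMs (log2 -0.25 and -0.32, adjusted p = 0.00227 and 6.76e-05). That scaling shifted the median of all genes from 0.02 to -0.10 with NB9464 TCM and from 0 to -0.23 with NBT3L TCM. A change of scaling shifts all genes alike, so the distance of Btk from the median cannot tell which scaling is right. That was not tested.

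Plcg2, the phospholipase that Btk and Syk activate, had 14174 and 13129 normalized counts in NS, 12453 and 12282 with NB9464 TCM, and 13045 and 12724 with NBT3L TCM. All 4 TCM libraries were below both NS libraries. The log2 change with NB9464 TCM, -0.14 (SE 0.057, adjusted p = 0.0361), passed the test by a small margin. It missed it in edgeR (adjusted p = 0.0504), in a fit of the NS and NB9464 TCM libraries alone (adjusted p = 0.0897) and in 9 of the 12 fits without 1 library, without SJ1, SJ3 to SJ6 or SJ9 to SJ12 (log2 -0.09 without SJ1, adjusted p = 0.377, the highest of them). With NBT3L TCM it was -0.08 (SE 0.057, adjusted p = 0.273). R788 gave 14341 and 15052 without TCM, 11868 and 11748 with NB9464 TCM, and 14109 and 13609 with NBT3L TCM, and none of these 3 changes was called. With R788 present, Plcg2 was 0.23 lower on the log2 scale with NB9464 TCM than with NBT3L TCM (SE 0.057, adjusted p = 0.00107). That call was lost without SJ11 (log2 -0.21) or with scaling by library totals (log2 -0.16, adjusted p = 0.0515). The scaling by totals shifted the median of all tested genes from -0.01 to 0.05.

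**Figure D3:**
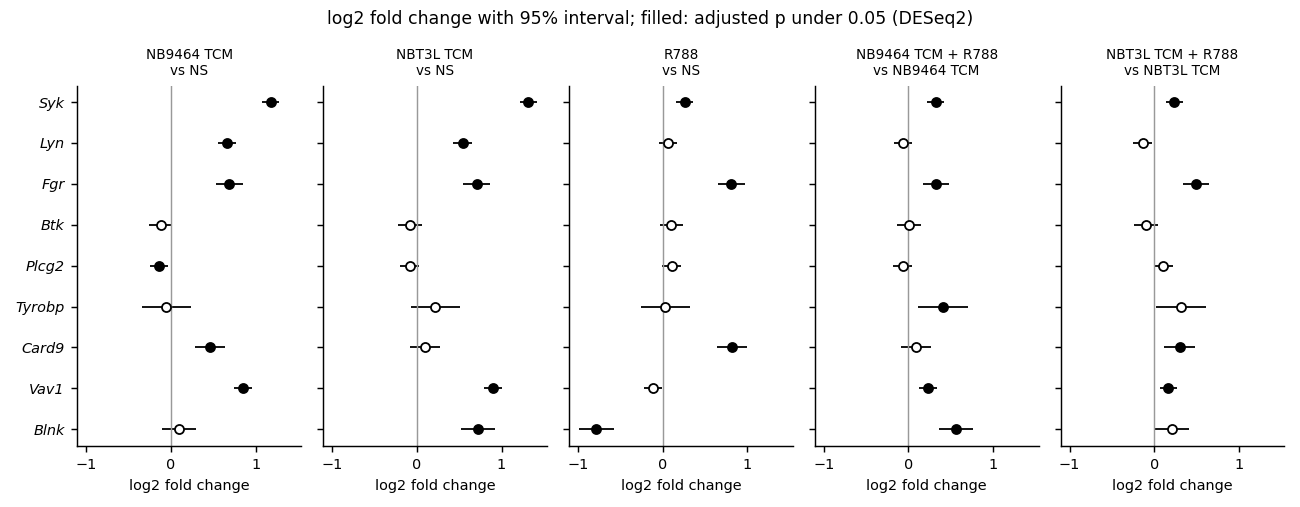
log2 fold change of the 9 genes in 5 comparisons, with 95% intervals. Filled points were called (DESeq2, adjusted p under 0.05). With TCM the upper values are those of Syk (1.18 and 1.32) and Vav1 (0.85 and 0.90), and with R788 alone those of Card9 (0.82) and Fgr (0.81), while Blnk lies at -0.78.

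R788 called 3 of the 9 genes higher and 1 lower without TCM, where 11.6% and 15% of all tested genes were. With NB9464 TCM it called 5 higher and 0 lower (5.79% and 8.7% of all genes), and with NBT3L TCM 4 and 0 (5.33% and 7.24%). Averaged over the media, 5 were higher and 0 lower (13.4% and 16.2%): Fgr (log2 0.55), Card9 (0.40), Syk (0.27), Tyrobp (0.25, adjusted p = 0.0142) and Vav1 (0.10, adjusted p = 0.0089). The Tyrobp average was lost without SJ1, SJ3, SJ6, SJ9 or SJ12 (adjusted p up to 0.0653, log2 0.17 to 0.32 over all libraries left out), and that of Vav1 without SJ6, SJ9 or SJ11 (adjusted p up to 0.0717, log2 0.08 to 0.11). Syk and Fgr were called higher in each of the 3 media. Between the TCMs, 1 of the 9 was higher with NB9464 (Card9) and 1 lower (Blnk), where 3.69% and 5.72% of all genes were. With R788 in both, 1 was higher (Lyn) and 1 lower (Plcg2), where 3.53% and 6.09% were.

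Whether the change with R788 differed by medium was tested as an interaction. For NB9464 TCM against no TCM, 2 of the 9 were called higher and 2 lower, where 6.22% and 6.26% of all genes were. Blnk differed by 1.34 on the log2 scale (SE 0.147, adjusted p = 9.17e-18) and Vav1 by 0.34 (SE 0.076, adjusted p = 0.000186). With R788, Blnk was lower without TCM and higher with NB9464 TCM. Card9 differed by -0.73 (SE 0.129, adjusted p = 5.01e-07) and Fgr by -0.48 (SE 0.112, adjusted p = 0.000301), which rose more without TCM.

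For NBT3L TCM against no TCM, the same 4 genes were called in the same directions, 2 higher and 2 lower, where 5.17% and 4.96% of all genes were. These interactions share the R788 and NS libraries with those above. Blnk differed by 0.99 (SE 0.146, adjusted p = 9.73e-10), Vav1 by 0.28 (SE 0.076, adjusted p = 0.00395), Card9 by -0.52 (SE 0.129, adjusted p = 0.00108) and Fgr by -0.31 (SE 0.112, adjusted p = 0.0407). Without SJ8, Card9 was at -0.41 and Blnk at 0.82, both called. Vav1 was lost without SJ2 (adjusted p = 0.0511), SJ6 (0.0605) or SJ11 (0.0519), and Fgr in edgeR (adjusted p = 0.106) and without SJ1, SJ2, SJ6 or SJ8 to SJ12 (adjusted p up to 0.284, log2 -0.24 to -0.38). Between the TCMs, 0 of the 9 interactions were called in DESeq2 or edgeR, where 0.283% and 0.424% of all genes were called higher and lower in DESeq2. At an unadjusted p under 0.05 there were 2, Blnk (0.36, SE 0.145) and Plcg2 (-0.17, SE 0.080), beside 7.57% of all tested genes.

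**Figure D4:**
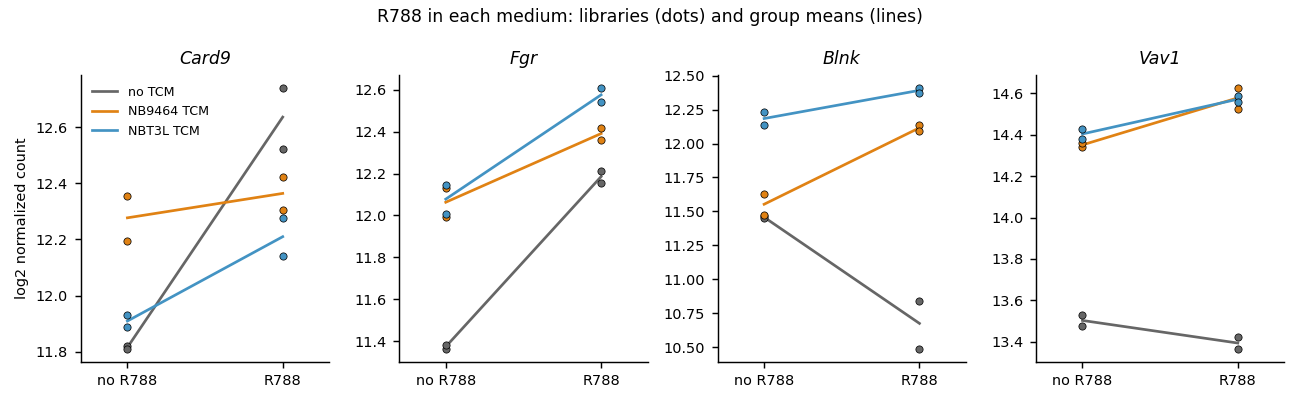
log2 normalized count of Card9, Fgr, Blnk and Vav1 without and with R788 in each medium. Dots are libraries, lines join the means of 2, and each panel has its own axis. The Blnk and Vav1 lines fall without TCM and rise with TCM, and those of Card9 and Fgr are steepest without TCM (0.82 and 0.81).

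Of the other genes of the pathway, 92 on 6 lists were read from the same fits, and 87 had enough counts to be tested. Of all tested genes, 17.2% were higher and 16.9% lower with NB9464 TCM and 18% and 17.3% with NBT3L TCM, and each list's counts are to be read beside these shares. For R788 the shares were 11.6% higher and 15% lower without TCM, 5.79% and 8.7% with NB9464 TCM, and 5.33% and 7.24% with NBT3L TCM. The lists, like the genes followed above, were chosen with earlier results of these data known, so their counts are no test of a list. Receptors and ITAM adaptors held large rises and falls. Of 17, 7 were higher and 3 lower with NB9464 TCM and 8 and 3 with NBT3L TCM, with median log2 fold changes of 0.30 and 0.40 (0.02 and 0 over all tested genes, as for the lists that follow). Clec4e (Mincle), a C-type lectin that signals through an ITAM adaptor, went from 9756 and 9905 normalized counts in NS to 79396 and 76138 with NB9464 TCM and 122690 and 126997 with NBT3L TCM. Clec4n (Dectin-2) rose by 2.71 and 3.18 on the log2 scale, while Trem2, a partner of Tyrobp, fell (log2 -1.67 and -1.71). R788 called 6 higher and 2 lower without TCM, 2 and 4 with NB9464 TCM, and 1 and 5 with NBT3L TCM. Fcgr1, the high-affinity Fc gamma receptor, fell in each medium, from 13785 and 13973 normalized counts in NS to 3045 and 2874 with R788 (log2 -2.23), and changed by -0.91 with NB9464 TCM and -1.13 with NBT3L TCM. Cd79b, a B cell receptor subunit, rose by 1.11 with R788 in NB9464 TCM (adjusted p = 0.0045) and by 1.34 in NBT3L TCM (adjusted p = 0.000519).

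Among 13 tested Src-family and Tec kinases and their regulators, 4 were higher and 2 lower with each TCM (median log2 0.42 with NB9464 TCM and 0.15 with NBT3L TCM). Fyn (log2 -1.12 and -1.34) and Tec (-0.78 and -0.69) fell. Yes1, Blk and Zap70 had at most 12, 0 and 8 reads in any library and were not tested. With R788, 4 were higher and 3 lower without TCM, 0 and 1 with NB9464 TCM, and 0 and 0 with NBT3L TCM, where 5.33% and 7.24% of all genes were.

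Among 16 tested adaptors and exchange factors, 8 were higher and 5 lower with NB9464 TCM and 8 and 6 with NBT3L TCM (median log2 0.13 and 0.25). Lcp2 (SLP-76), the counterpart of Blnk in other blood cells, rose by 1.35 and 1.21 on the log2 scale, from 6478 and 6242 normalized counts in NS to 14601 to 16169 in the TCM libraries. Rac2, the Rac of blood cells, rose by 1.39 and 1.50. Dock2 fell with both TCMs (log2 -0.52 and -0.44), and so did Vav3, a paralog of Vav1 (log2 -0.47 and -0.44). Lcp2 and Dock2 share 282 of 4459 and 460 of 11425 exon bases with genes on the opposite strand. R788 called 0 of these higher and 2 lower without TCM, where 11.6% and 15% of all genes were, and 3 and 3 with each TCM.

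Of 13 phospholipase, calcium and PI3K genes, 6 were higher and 4 lower with NB9464 TCM and 5 and 4 with NBT3L TCM (median log2 0.16 and 0.11). Rasgrp1 and Rasgrp3, exchange factors for Ras activated by diacylglycerol, moved apart: Rasgrp1 rose from 15.0 and 34.1 normalized counts to 495 and 458 with NB9464 TCM and 542 and 445 with NBT3L TCM, and Rasgrp3 fell from 357 and 397 to 20.1 and 50.2, and to 2.48 and 6.49. Pik3r5, a PI3K gamma regulator, rose by 0.69 and 0.76 on the log2 scale. Pik3ap1 (BCAP), an adaptor for PI3K, fell by 0.91 with R788 alone, from 23235 and 22020 normalized counts to 12022 and 12071. Averaged over media, R788 called 9 of the 13 higher and 3 lower, beside 13.4% and 16.2% of all genes.

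In the Card9-Bcl10-Malt1 branch with the protein kinases C, 4 of 12 were higher and 1 lower with NB9464 TCM and 5 and 2 with NBT3L TCM (median log2 0.29 and 0.28). Prkcb, a kinase activated by diacylglycerol and calcium, rose by 1.73 and 1.95 on the log2 scale, from 3591 and 3450 normalized counts in NS to 11380 to 13672 in the TCM libraries. Prkcb was also higher with R788 in each medium (log2 0.56, 0.39 and 0.29). Malt1, the partner of Bcl10, rose by 0.35 with NB9464 TCM and 0.99 with NBT3L TCM on the log2 scale, and was 0.64 lower on the log2 scale with NB9464 TCM than with NBT3L TCM. R788 called 2 of the 12 higher and 2 lower without TCM and 3 and 0 with each TCM.

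The inhibitors of the pathway split. Of 16 tested, 7 were higher and 7 lower with each TCM (median log2 -0.17 and -0.07). Socs1, an inhibitor of cytokine signaling, went from 282 and 215 normalized counts in NS to 1156 and 1087 with NB9464 TCM and 2655 and 2635 with NBT3L TCM. Sla (SLAP) rose by 1.58 and 1.07 on the log2 scale, and the phosphatase gene Ptpn22 fell by 1.27 and 1.35. R788 called 4 higher and 7 lower without TCM, 3 and 1 with NB9464 TCM, and 5 and 2 with NBT3L TCM. Lpxn (log2 -0.98) and Ptpn22 (-0.91) fell with R788 alone.

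The pattern of Syk over the 12 libraries was followed most closely, among 10709 genes whose mean was 100 or more normalized counts, by Gng12, Batf, Mras, Spic and Tlr1 (Pearson r of log2 normalized counts 0.998, 0.996, 0.995, 0.995 and 0.994). Gng12, a G protein gamma subunit, had group means of 5679 normalized counts in NS, 11160 and 12157 with the TCMs and 13176 and 13849 with TCM and R788. Batf, an AP-1 family factor, went from 265 in NS to 2474 and 2580 with the TCMs and to 4236 and 4490 with R788 added. Of the other 8 genes, Vav1 had the highest r with Syk, 0.976 (rank 125), followed by Lyn (0.884), Blnk (0.806), Fgr (0.763), Tyrobp (0.638) and Card9 (0.07), while Plcg2 (-0.57) and Btk (-0.80) were negative. The points are 6 groups of 2 libraries and share their treatment, so r describes the group pattern.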

How the data were processed

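Read counts per gene were measured in 12 libraries of BMDMs. The deposited table holds whole-number counts, not normalized, per Ensembl gene ID with a gene length. Per their methods, the authors used STAR for alignment to mm10 and Salmon for quantification (bcbio), and the submitters' processing notes name STAR 2.6.1d, Salmon 1.4.0, SAMtools 1.9, Picard 2.26 and MultiQC 1.11. Use of strand and the handling of reads that map to several places are not given in the sources used here, so reads of a gene and of an antisense partner may be mixed, as may those of paralogs. Reads were paired-end by the labels, whereas the methods give single reads and triplicates. Even values made up 65.2% to 67.9% of counts from 1 to 40, so counts divided by 2 were tried.

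Symbols, positions and exon overlaps came from GENCODE M21 (GRCm38), which held 54165 of 54232 IDs. Groups came from the labels. The 16281 genes that reached 10 counts in 2 or more libraries entered DESeq2 1.42.0 (R 4.3.3), which the study names: all 12 libraries, a mean per group, median-of-ratios size factors, Wald tests, unshrunken log2 fold changes and Benjamini-Hochberg adjustment within each comparison. There were 11 comparisons, which set each TCM against NS, R788 against none within each medium and averaged, NB9464 with NBT3L TCM without and with R788, and 3 interactions. All tests were two-sided. The steps were tested on simulated data. TPM, computed from the counts and table lengths, served to compare levels between genes and to sum cell type markers, and not for tests between groups. Against NS, log2 changes in TPM were offset from those in normalized counts by -0.25 with NB9464 TCM and -0.39 with NBT3L TCM. Alternatives were edgeR 4.0.16 (quasi-likelihood, TMM), TMM within DESeq2, no filter, a mean of at least 50 counts, only the compared groups fitted, apeglm 1.24.0 shrinkage, each library left out and, added after seeing the data, scaling by library totals.

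The genes and pathway lists were chosen with earlier results of these data known. All 9 genes are given in every group. Of each list and comparison, at most the 2 largest called rises and 2 largest falls with a mean of at least 100 normalized counts were eligible to be named, with the 5 genes most correlated with Syk (log2 of normalized count + 1). Motifs were searched as letters on both strands of RefSeq windows. Some genes of the lists are not reported here.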

Additional observations from a re-analysis of the deposited data

Results flagged for a closer look

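In 8 tests, the effect of R788 on a gene differed between a TCM and no TCM by the interaction term of DESeq2 (adjusted p under 0.05). For NB9464 TCM the difference on the log2 scale was 1.34 for Blnk, 0.34 for Vav1, -0.73 for Card9 and -0.48 for Fgr. For NBT3L TCM it was 0.99 for Blnk, 0.28 for Vav1, -0.52 for Card9 and -0.31 for Fgr. All 8 use the R788 and NS libraries, and the R788 pair had the widest spread between replicates of the 6 groups (SD of the log2 difference 0.371). Without R788 library SJ7 or SJ8 in turn, 7 of the 8 kept their call and direction, and Fgr in NBT3L TCM lost its call without SJ8 (-0.29, adjusted p = 0.102).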

How the results depend on the processing

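No paired analysis was possible because each library has a number of its own (SJ1 to SJ12) that no other group shares. No change of the 9 genes that was called in the full fit turned direction under the alternatives run. Tyrobp with R788 alone, not called in that fit, was called lower without SJ7 (log2 -0.21, adjusted p = 0.0178) and higher without SJ8 (0.24, adjusted p = 0.00617). With only the compared groups fitted, 8 of the 9 genes were called for R788 in NBT3L TCM (4 in the full fit). That fit called 4 for NB9464 against NBT3L TCM (2) and 4 for the same with R788 (2). It called 1 for the R788 interaction between TCMs (0). Scaling by library totals called 1 for NB9464 against NBT3L TCM with R788 (2). The number of all tested genes called under an alternative is given here only for the interaction between TCMs. The other moves, here and below, cannot be told from a general change in calls. Other moves with scaling by library totals were from 5 to 7 for NBT3L TCM against NS, 4 to 6 for the NB9464 interaction and 2 to 3 between the TCMs. Counts elsewhere also shifted by 1. In edgeR the calls of Plcg2 (NB9464 TCM), Vav1 (R788 in NBT3L TCM) and Fgr (NBT3L interaction) were lost. With 1 library left out (a lone library is then assumed to vary like the other groups), the counts ranged from 2 to 7 for R788 in NBT3L TCM, 1 to 4 between the TCMs, 0 to 4 between the TCMs with R788, 3 to 5 for R788 in NB9464 TCM and for R788 averaged, 2 to 6 for the NBT3L interaction and 0 to 1 for the interaction between TCMs. They were 5 to 6 for each TCM against NS, 4 to 5 for R788 against NS and 4 to 6 for the NB9464 interaction. The interaction between TCMs called 115 of all tested genes, 21 in edgeR and 272 with only the compared groups. Scaling by library totals moved the share of called genes that were higher from 50.5% to 35.4% for NB9464 TCM, 51.1% to 26.8% for NBT3L TCM, 43.5% to 55.5% for R788, 39.2% to 71.9% between the TCMs and 36.7% to 58.3% between them with R788. Under it Plcg2 was called lower with NBT3L TCM (-0.32) and higher with R788 (0.17). The median of all tested genes moved from 0 to -0.23 and from 0 to 0.06 in these comparisons. With 2 libraries per group, small changes such as that of Plcg2 are at the limit of what these data resolve.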
